A study of Rattus norvegicus with 12 samples.

Results

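Genes of the collagen matrix and of its remodelling were followed in the left ventricle of rat pups after abdominal aortic banding surgery (ABS) or sham surgery. The 9 genes were chosen by their Ensembl identifiers, which were Col1a1 (ENSRNOG00000003897), Col1a2 (ENSRNOG00000011292), Col3a1 (ENSRNOG00000003357), Fn1 (ENSRNOG00000014288), Sparc (ENSRNOG00000012840), Mmp2 (ENSRNOG00000016695), Timp1 (ENSRNOG00000010208), Ccn2 (ENSRNOG00000015036) and Tgfb1 (ENSRNOG00000020652). They are 9 of the 34733 rows that were counted, and all of them were above the limit for low counts in every comparison. In ABS a suture ties the abdominal aorta over a needle, which is then withdrawn. This is meant to keep the aorta narrowed and to raise the pressure against which the left ventricle pumps. The paper states that blood pressure could not be detected in pups this young, so the load at P3 and P7 was not measured. The pups were Sprague–Dawley rats of both sexes, operated on at postnatal day 1, and the libraries came from 4 groups of 3: ABS at postnatal day 3 (P3), sham at P3, ABS at postnatal day 7 (P7) and sham at P7. No further treatment and no altered gene is named for any group. The labels call the material left ventricular myocardiocytes and the methods call it left ventricles. Cardiomyocyte, fibroblast and other cell markers could not be looked up to tell these apart, because the files give no gene symbols and 0 of the 32883 Ensembl identifiers matched the table of rat genes at hand. Which libraries came from one litter is not stated, so the p-values measure only the spread between these libraries.

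The cardiac interstitium is built mainly from fibrillar collagens. Type I collagen is assembled from the chains of Col1a1 and Col1a2, and type III collagen from the chain of Col3a1. Fibroblasts are known as the main source of these chains. Fibronectin (Fn1) forms the provisional network on which collagen fibrils are laid down, and Sparc binds collagen and is needed for its maturation. Mmp2 is a gelatinase that degrades matrix proteins, and Timp1 inhibits metalloproteinases. Tgfb1 is the ligand best known for driving fibroblasts toward matrix production, and Ccn2, formerly called connective tissue growth factor, is one of the genes that it and mechanical stretch induce. Pressure overload of the adult ventricle is a textbook setting for a rise of these genes, and the matrix also grows in the first days after birth.

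The total count per library was 14268210 to 17286278. At P7, 18579 to 18982 genes had at least 1 count in a library, whereas at P3 it was 15266 to 18359. The 3 libraries with the fewest, all under 16000, were ABS replicates 1 and 2 and sham replicate 2 of P3. In these 3 libraries the 500 most abundant genes held 58.9% to 62.4% of all counts, and in the other P3 libraries 51.7% to 54.8%. The edgeR comparisons that include P3 and the summed collagens are therefore given with and without these 3 libraries, an alternative added after the data had been seen. The counts of genes whose groups do not overlap and the DESeq2 results are given with all libraries. Levels are given as CPM, the count of a gene scaled to a common library total with TMM factors. Genes are not compared with each other in level, because transcript lengths were not used. Counts of the 9 genes were 173 to 107252 per library.

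The mean levels of the 3 fibrillar collagens at P7 were 1.34 to 2.45 times those at P3 in the same surgery group, and ABS and sham libraries overlapped on both days. None of these differences passed the test given further on. In RNA of a whole tissue, fewer cells of a type and less RNA per cell cannot be told apart. Col1a1 was at 4036, 3272 and 3094 CPM in ABS replicates 1, 2 and 3 of P3 and at 2491, 3389 and 4654 CPM in the sham replicates. At P7 it was at 5178, 5272 and 4087 CPM after ABS and at 5063, 4731 and 4335 CPM after sham surgery. The ABS and sham libraries overlapped on both days, while every ABS library of P7 was above every ABS library of P3. Col3a1 was at 4504, 3713 and 3802 CPM (ABS) and 3524, 4224 and 5235 CPM (sham) at P3, and at 6196, 6173 and 4721 CPM (ABS) and 6378, 5836 and 5822 CPM (sham) at P7. For Col3a1 all P7 libraries of a surgery group lay above all of its P3 libraries, after ABS as well as after sham surgery.

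Col1a2, the partner chain of Col1a1, had a far wider range than the other collagens. It was at 171, 340 and 631 CPM in the ABS replicates and 607, 83.0 and 705 CPM in the sham replicates of P3. At P7 it was at 477, 1089 and 1235 CPM after ABS and at 786, 982 and 1346 CPM after sham surgery. The highest library was 16.2 times the lowest, against 2.12 times for Col1a1 and 1.81 times for Col3a1. The 3 lowest values belonged to the 3 P3 libraries with the fewest detected genes. At P7, where detected genes hardly varied, the SD of log2 CPM within groups was 0.59 for Col1a2, and 99.0% of the 9173 genes averaging at least 10 CPM had a smaller one. It was 0.17 for both Col1a1 and Col3a1, against a median of 0.12 over these genes.

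Because the type I chains are assembled together, their counts were also set against each other within each library, where scaling plays no part. The number of Col1a1 counts per Col1a2 count was 23.6, 9.64 and 4.90 in the ABS replicates and 4.10, 40.8 and 6.60 in the sham replicates of P3. At P7 it was 10.9, 4.84 and 3.31 after ABS and 6.44, 4.82 and 3.22 after sham surgery. The surgery groups overlapped on both days, and 3 of the 4 highest ratios belonged to the P3 libraries with few detected genes. The number of Col3a1 counts per Col1a1 count was far steadier. It was 1.12, 1.13 and 1.23 (ABS) and 1.42, 1.25 and 1.12 (sham) at P3, and 1.20, 1.17 and 1.15 (ABS) and 1.26, 1.23 and 1.34 (sham) at P7. At P7 the 3 ABS libraries were all below the 3 sham libraries, whereas at P3 they overlapped. These ratios and that of Timp1 to Mmp2 were chosen after the values were seen, so their tests support nothing. In two-sided exact permutation tests of ABS against sham, 6 in all, the smallest p was 0.1, that of Col3a1 to Col1a1 at P7 (0.6 after Benjamini-Hochberg adjustment over the 6), and 0.1 is the smallest that 3 against 3 libraries allow.

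**Figure D1:**
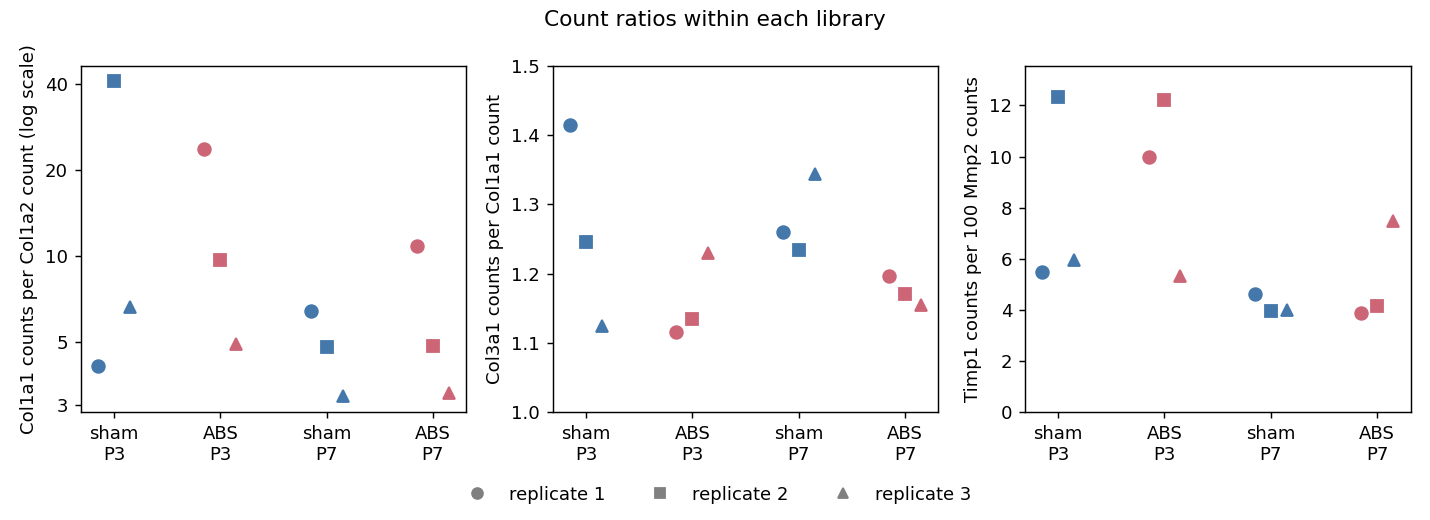
Count ratios within each library for the 4 groups (sham in blue, ABS in red, a symbol for each replicate), with the left axis on a log scale and the middle axis starting at 1. The ratio of Col1a1 to Col1a2 runs from 3.22 to 40.8, the ratio of Col3a1 to Col1a1 only from 1.12 to 1.42, and Timp1 per 100 Mmp2 counts is 3.89 to 7.49 at P7 and 5.32 to 12.3 at P3.

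The promoter of Col1a2 is printed because this gene varied most among the collagens. The sequence is that of RefSeq in the build GRCr8, the 250 bases before the annotated start at chr4:33518307-33518556 on the plus strand. Capitals mark matches, on either strand, to the letters of the CCAAT box (CCAAT), the TATA box (TATAAA) and a Smad binding element (CAGAC). The TATAAA match began at -170 and the CCAAT match at -221 from the annotated start. In the Ccn2 promoter, printed further on, the TATAAA match began at -31. Whether either Col1a2 match is used, and whether transcription begins at the annotated start, was not tested. A TEAD site (GGAATG) and an AP-1 site (TGANTCA) were also searched, with no match in these 250 bases. Sequence further upstream was not searched.
Col1a2: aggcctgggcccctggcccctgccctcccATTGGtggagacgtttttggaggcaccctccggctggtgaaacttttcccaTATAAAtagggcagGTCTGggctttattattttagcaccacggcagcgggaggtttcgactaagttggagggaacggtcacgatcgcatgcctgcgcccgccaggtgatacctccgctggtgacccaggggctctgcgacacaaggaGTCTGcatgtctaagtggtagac
Of 33469 rat promoters of this length, 34.0% held CCAAT, 12.9% held TATAAA, 42.9% held CAGAC, 12.1% held GGAATG and 6.34% held TGANTCA, so single matches of this kind are common. RefSeq promoters were found for 5 of the 9 genes.

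Summed over Col1a1, Col1a2 and Col3a1, the level was 7854 ± 749 CPM (SD, n = 3) after ABS and 8304 ± 2055 CPM (SD, n = 3) after sham surgery at P3. At P7 it was 11476 ± 1287 CPM (SD, n = 3) and 11760 ± 405 CPM (SD, n = 3). The mean at P7 was 1.46 times that at P3 after ABS and 1.42 times after sham surgery. Without the 3 libraries of few detected genes these were 1.52 times, with 1 ABS library left at P3, and 1.37 times, with 2 sham libraries left. In both surgery groups the lowest P7 library (10044 CPM for ABS and 11503 CPM for sham) was above the highest P3 library (8711 CPM and 10595 CPM). The difference between ABS and sham on the log2 scale was -0.06 at P3 (-0.15 without the 3 libraries) and -0.04 at P7, and the sign changed when sham replicate 3 (at P3, 0.13) or ABS replicate 3 (at P7, 0.05) was left out.

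Fibronectin resembled Col1a2 in its order of libraries at P3. Fn1 was at 455, 426 and 609 CPM after ABS and 558, 408 and 748 CPM after sham surgery at P3, and at 800, 715 and 741 CPM and 848, 722 and 980 CPM at P7. It was lowest in the 3 libraries with few detected genes, and all ABS libraries of P7 were above those of P3. Sparc, the collagen-binding glycoprotein, had the steadiest group means of the 9 genes. Its group means were 2653 ± 494 CPM (ABS, P3), 2563 ± 558 CPM (sham, P3), 2580 ± 233 CPM (ABS, P7) and 2594 ± 90.7 CPM (sham, P7), each with n = 3 and the SD. The highest of these means was 1.04 times the lowest.

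The protease and its inhibitor differed in how they varied. Mmp2 was at 293, 259 and 220 CPM (ABS) and 265, 328 and 411 CPM (sham) at P3, and at 276, 277 and 205 CPM (ABS) and 273, 270 and 287 CPM (sham) at P7. The sham libraries of P7 were close together, with a coefficient of variation of 3.24%. Timp1 was at 29.3, 31.6 and 11.7 CPM (ABS) and 14.5, 40.4 and 24.5 CPM (sham) at P3, and at 10.7, 11.5 and 15.3 CPM (ABS) and 12.6, 10.7 and 11.5 CPM (sham) at P7. The sham libraries of P7 were all below the sham libraries of P3. Per 100 counts of Mmp2, Timp1 had 5.32 to 12.2 counts after ABS and 5.48 to 12.3 after sham surgery at P3. At P7 it had 3.89 to 7.49 and 3.97 to 4.62, and the highest of these was ABS replicate 3.

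The ligand Tgfb1 and its target Ccn2 differed in how they spread at P7. Tgfb1 was at 155, 123 and 43.6 CPM (ABS) and 47.9, 152 and 107 CPM (sham) at P3. At P7 it was nearly constant, at 67.8, 66.3 and 60.5 CPM after ABS and 65.4, 66.7 and 61.8 CPM after sham surgery. Its SD of log2 CPM within groups at P7 was 0.07, and 17.9% of genes had a smaller one. Ccn2 was at 260, 557 and 180 CPM (ABS) and 81.8, 283 and 357 CPM (sham) at P3, and at 72.8, 89.4 and 277 CPM (ABS) and 188, 130 and 154 CPM (sham) at P7. Its SD at P7 was 0.76, with 99.4% of genes below it. ABS replicate 3 of P7 was the library with the highest Ccn2 and Timp1 of that day and the lowest Col1a1, Col3a1, Sparc, Mmp2 and Tgfb1.

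The promoters of Ccn2 and Timp1 are shown because both genes ranged widely between libraries, 7.64-fold and 3.76-fold. The first lies at chr1:22624615-22624864 and the second at chrX:3771123-3771372 (GRCr8, both on the minus strand), with the same motifs in capitals.
Ccn2: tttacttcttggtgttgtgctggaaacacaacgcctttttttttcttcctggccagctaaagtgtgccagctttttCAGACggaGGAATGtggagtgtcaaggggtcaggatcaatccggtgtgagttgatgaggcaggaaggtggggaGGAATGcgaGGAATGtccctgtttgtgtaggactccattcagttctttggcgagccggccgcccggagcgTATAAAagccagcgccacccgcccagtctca
Timp1: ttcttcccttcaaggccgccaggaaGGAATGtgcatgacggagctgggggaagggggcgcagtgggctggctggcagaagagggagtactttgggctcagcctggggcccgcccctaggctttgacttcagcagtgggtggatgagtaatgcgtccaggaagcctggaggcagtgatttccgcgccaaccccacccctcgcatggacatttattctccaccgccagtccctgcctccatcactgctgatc
The Ccn2 sequence held 3 matches to GGAATG, the letters of the TEAD site, 1 to CAGAC and 1 to TATAAA. The Timp1 sequence held 1 match to GGAATG. That of Tgfb1 held none of the 5 motifs, and that of Sparc held 3 matches to CAGAC and 1 to GGAATG. A match says only that these letters stand there.

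**Figure D2:**
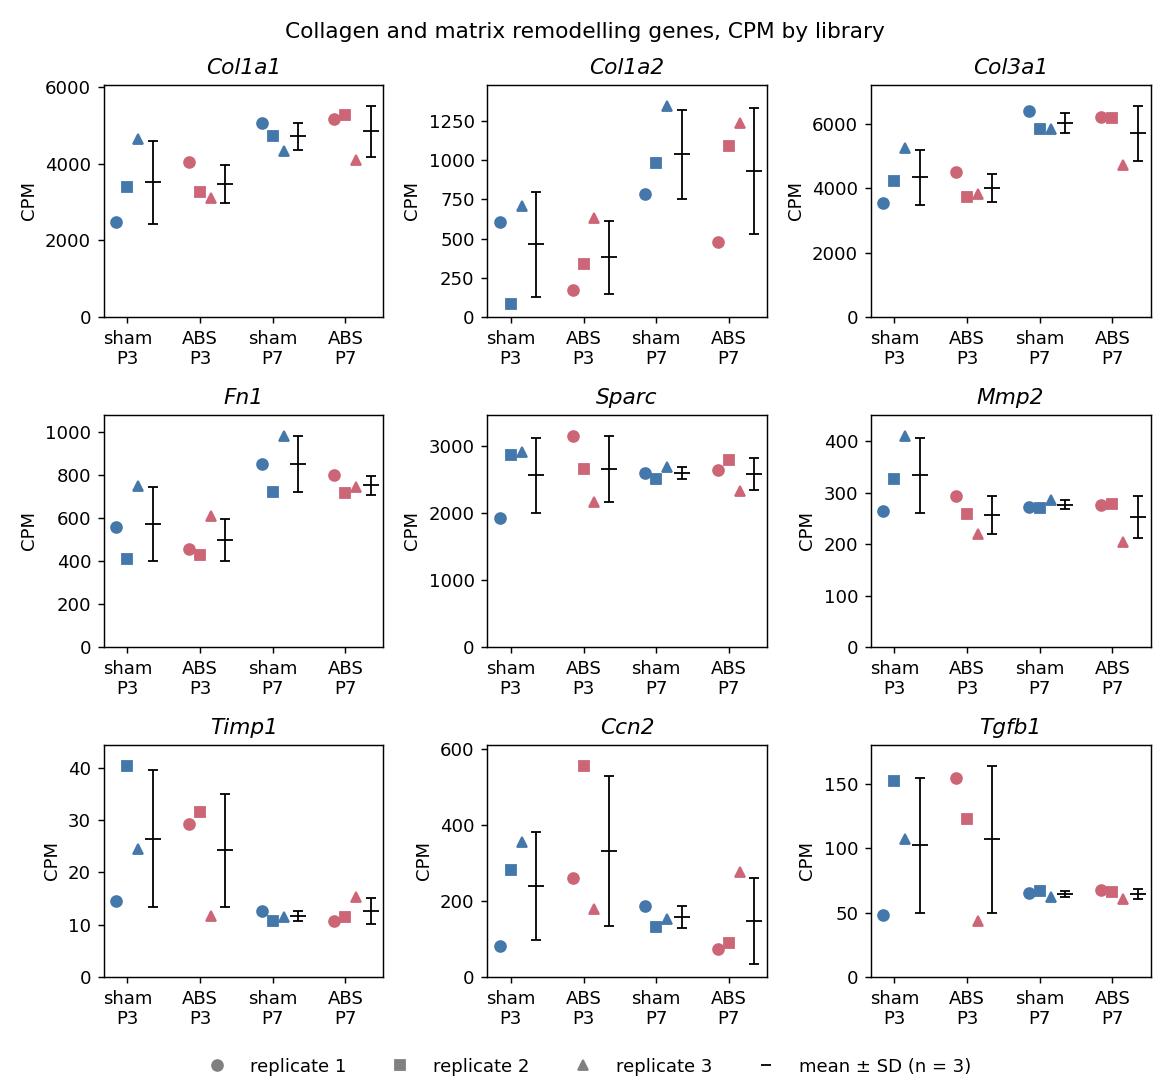
CPM of each of the 9 genes in every library, with the mean ± SD (n = 3) of each group beside the points and every axis starting at 0. The ABS and sham points of a day overlap in all 9 panels, Col3a1 is higher at P7 in both surgery groups, and Tgfb1 and Timp1 spread over a wide range at P3 but not at P7.

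Whether banding changed these genes was asked separately for each day. The two-sided quasi-likelihood test of edgeR was used, with Benjamini-Hochberg adjustment across every gene that passed the filter on low counts. At P3, 0 of the 9 genes passed an adjusted p of 0.05 and 0 had an unadjusted p under 0.05. Among all 14222 genes tested, 0% passed the adjusted threshold and 0.330% the unadjusted one. The log2 fold changes of the 9 genes were -0.35 to 0.49, with a median of -0.09 (all genes -0.01) and standard errors of 0.27 to 0.77. The largest was that of Ccn2, at 0.49 (95% interval -0.99 to 1.96), which turned to -0.11 without ABS replicate 2. The smallest unadjusted p was that of Mmp2, 0.229 in edgeR's test, with a log2 fold change of -0.35 (95% interval -0.99 to 0.28). Without the 3 libraries of few detected genes, 0 of the 9 genes passed, when 0.0525% of all genes did. Only 1 ABS library remained in that fit, and it was assumed to vary like the sham libraries.

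At P7 the intervals were narrower than at P3 for every gene but Ccn2. In edgeR's test 0 of the 9 genes passed the adjusted threshold, against 0% of 14635 genes. Also 0 had an unadjusted p under 0.05, against 3.40% of all genes. For Col1a1 the log2 fold change was 0.04 (95% interval -0.21 to 0.29), for Col3a1 -0.08 (-0.33 to 0.17), for Sparc -0.01 (-0.20 to 0.19) and for Tgfb1 0.00 (-0.17 to 0.17). Fn1 had the smallest unadjusted p, 0.135 in edgeR's test, at a log2 fold change of -0.18 (95% interval -0.42 to 0.07). Mmp2 was at -0.13 (-0.38 to 0.12) and Timp1 at 0.11 (-0.25 to 0.47). Col1a2 and Ccn2 had intervals over 2 log2 units wide, -0.15 (-1.31 to 1.00) and -0.10 (-1.76 to 1.56), so that a doubling or halving lay within or at the edge of what these libraries could not tell from no change. Without ABS replicate 3, Ccn2 was at -0.96, and without ABS replicate 1 at 0.22. On neither day did the ABS and sham libraries separate for any of the 9 genes. Among all genes tested they did so for 3.45% at P3 and 8.76% at P7. With shares this small, a count of 0 among 9 genes is not particular to them. DESeq2, the tool of the study, also gave 0 of the 9 genes at either threshold on both days, where the adjusted threshold was passed by 0.0198% (P3) and 0.0679% (P7) of the 20152 and 22086 genes it tested, and the unadjusted one by 0.849% and 1.84%.

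The difference between the surgery effects of P7 and P3, tested as the interaction over all 12 libraries, gave 0 of the 9 genes at an adjusted p or an unadjusted p under 0.05 with edgeR and with DESeq2. Of all 15236 genes, 0% passed the adjusted and 1.16% the unadjusted threshold with edgeR. With DESeq2, which ran without the filter on low counts, these shares were 0.0221% and 1.74% of 22591 genes. The smallest unadjusted p was 0.408 for Mmp2 from edgeR's test, at a difference of 0.24 on the log2 scale (95% interval -0.38 to 0.87). Without the 3 libraries of few detected genes, with 1 ABS library left at P3, this difference was 0.51.

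From P3 to P7 the log2 fold changes of Col1a1, Col1a2, Col3a1 and Fn1 were above 0 and those of Timp1, Ccn2 and Tgfb1 below 0 in both surgery groups, but no gene of the 9 passed the adjusted threshold. The comparisons of the sham and of the ABS group share no library, but in both every P3 library had fewer detected genes than every P7 library. In the sham group, 0 of the 9 genes passed in edgeR's test, against 0.00684% of 14619 genes. Col1a1 was at 0.40 (95% interval -0.25 to 1.04) on the log2 scale, Col3a1 at 0.45 (-0.07 to 0.98), Col1a2 at 1.15 (-0.51 to 2.81) and Fn1 at 0.55 (-0.07 to 1.18). Timp1 was at -1.22 (-2.14 to -0.30), with an unadjusted p of 0.0168 and an adjusted p of 0.288 from edgeR's test, and was the only 1 of the 9 genes under the unadjusted threshold, which 16.1% of all genes passed. Tgfb1 was at -0.70 (-1.66 to 0.26) and Ccn2 at -0.64 (-1.85 to 0.57). The P7 libraries did not overlap those of P3 for Col1a2 and Col3a1, which were higher, and for Timp1, which was lower, that is 2 of the 9 genes higher against 16.0% of all genes and 1 lower against 14.0%. DESeq2 also gave 0 of the 9 genes at the adjusted threshold (1.93% of the 21413 genes it tested) and Timp1 alone at the unadjusted one (13.7%).

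In the ABS group, 0 of the 9 genes passed the adjusted threshold in edgeR's test, as did 0.0138% of 14504 genes. Col1a1 was at 0.43 (95% interval -0.09 to 0.95) on the log2 scale, Col3a1 at 0.46 (-0.05 to 0.96), Col1a2 at 1.26 (-0.01 to 2.52) and Fn1 at 0.55 (0.10 to 1.01). Timp1 was at -1.01 (-1.99 to -0.03), Ccn2 at -1.24 (-2.76 to 0.27) and Tgfb1 at -0.78 (-1.83 to 0.26). Ccn2 was at -2.09 without ABS replicate 3 of P7 and at -0.63 without ABS replicate 2 of P3. Fn1 and Timp1 had unadjusted p-values of 0.0243 and 0.0452 from edgeR's test, with adjusted values of 0.250 and 0.278, that is 2 of the 9 genes against 17.7% of all genes. Col1a1, Col3a1 and Fn1 were higher in all P7 than in all P3 libraries, 3 of the 9 genes against 15.5% of all genes, and 0 of the 9 were lower in all of them, against 12.4%. DESeq2 gave 0 of the 9 genes at the adjusted threshold (2.48% of the 21281 genes it tested) and 5 at the unadjusted one (Col1a2, Col3a1, Fn1, Timp1 and Ccn2, against 14.8%). Sparc and Mmp2 were near 0 in the ABS group, at -0.09 (-0.62 to 0.43) and -0.08 (-0.58 to 0.42). In the sham group Sparc was at -0.01 (-0.56 to 0.54) and Mmp2 at -0.30 (-0.79 to 0.19).

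**Figure D3:**
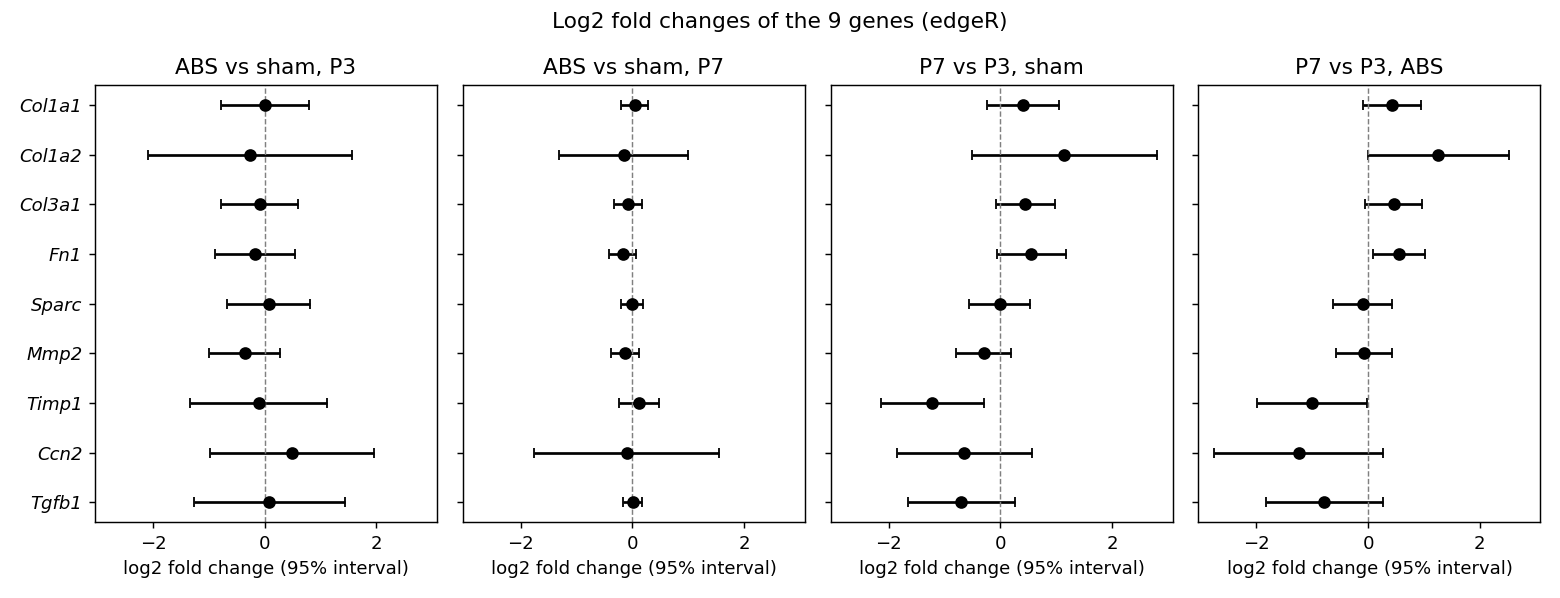
Log2 fold changes of the 9 genes from edgeR with their 95% intervals, ABS against sham at P3 and P7 and P7 against P3 in the sham and ABS groups, on one scale, with a dashed line at 0. The intervals of ABS against sham at P7 are narrower than those of the other comparisons for every gene but Ccn2, and those of P7 against P3 leave out 0 for Timp1 in both surgery groups and for Fn1 in the ABS group.

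The age comparison turned on single libraries of P3. In the ABS group, 4 of the 9 genes (Col1a2, Fn1, Timp1 and Tgfb1) passed the adjusted threshold without ABS replicate 3 of P3, when 50.1% of all genes did. In the sham group, 4 of the 9 genes (Mmp2, Timp1, Ccn2 and Tgfb1) passed without sham replicate 1 of P3, when 32.2% of all genes did. The first removal leaves at P3 only libraries with few detected genes, and the second leaves 1 such library and 1 other. Without the 3 libraries of few detected genes, Timp1 and Tgfb1 after ABS had log2 fold changes of 0.09 and 0.56 in place of -1.01 and -0.78. After sham surgery Timp1 and Tgfb1 stayed below 0 without them, at -0.76 and -0.27 in place of -1.22 and -0.70. Ccn2 stayed below 0 in both surgery groups, at -0.31 (ABS) and -0.49 (sham). In that fit, where ABS has 1 library at P3, Col1a1 and Col3a1 after ABS were at 0.64 and 0.57 and after sham surgery at 0.39 and 0.45, so these kept their direction, and 0 of the 9 genes passed, as did 3.15% of all genes in the ABS group and 0% in the sham group. When detected genes entered the fit as a covariate, the log2 fold changes of Col1a1 and Col3a1 were 0.86 and 0.72 after ABS and 0.61 and 0.59 after sham surgery, whereas Col1a2 was at -0.38 in both surgery groups. In that fit 1 of the 9 genes passed in the ABS group, Tgfb1 at 1.58, against 5.20% of all genes. Detected genes did not overlap between the days, at 15266 to 18359 (P3) and 18579 to 18982 (P7). The covariate therefore cannot be separated from day, and its values are not age effects freed of detected genes. With voom and sample quality weights, 7 of the 9 genes passed in the ABS group (all but Sparc and Mmp2) and 4 in the sham group (Mmp2, Timp1, Ccn2 and Tgfb1), when 46.4% and 46.0% of all genes did.

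Within P3, the 3 libraries with few detected genes were set beside the other 3. Col1a2 (83.0 to 340 against 607 to 705 CPM) and Fn1 (408 to 455 against 558 to 748 CPM) were lower in all of them. Timp1 (29.3 to 40.4 against 11.7 to 24.5 CPM) and Tgfb1 (123 to 155 against 43.6 to 107 CPM) were higher in all of them. Col1a1, Col3a1, Sparc, Mmp2 and Ccn2 overlapped. Of the 8962 genes averaging at least 10 CPM at P3, 25.9% were likewise lower and 24.0% higher in all 3, so a separation of this kind is common among all genes. The part of library complexity in the differences between P3 and P7 was not tested beyond the fits above.

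**Figure D4:**
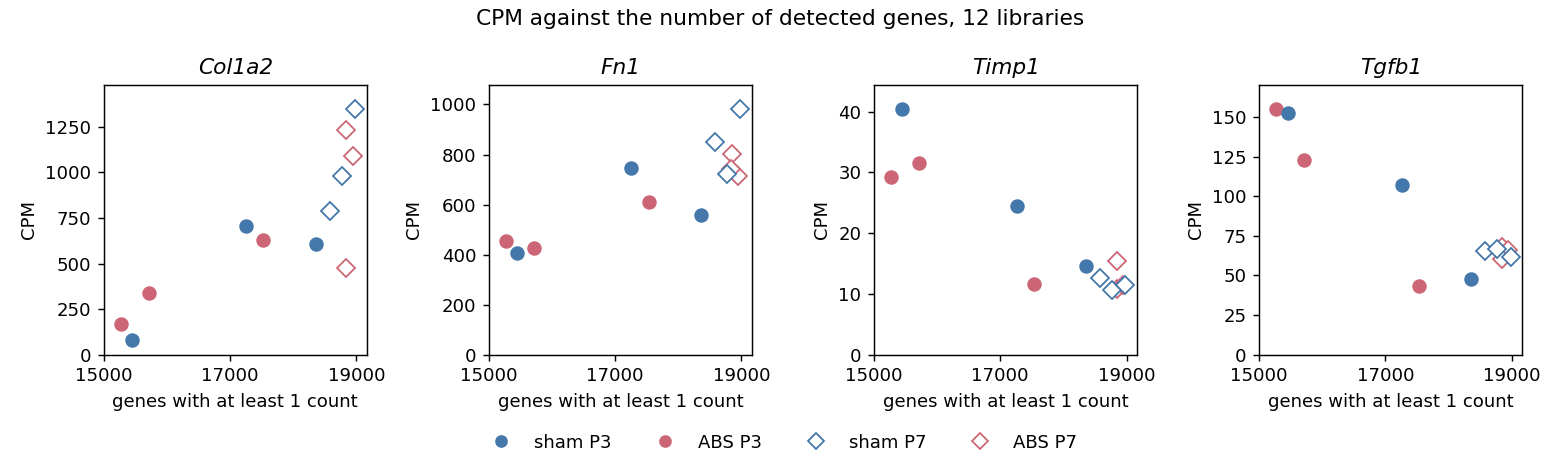
CPM of Col1a2, Fn1, Timp1 and Tgfb1 against detected genes (those with a count of 1 or more) in each of the 12 libraries (filled circles P3, open diamonds P7; sham in blue, ABS in red). The 3 P3 libraries under 16000 genes have the lowest Col1a2 and Fn1 and the highest Timp1 and Tgfb1, and the P7 libraries sit between 18579 and 18982 genes.

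The order of the 4 groups by mean level was ABS P3, sham P3, ABS P7 and sham P7 for Col1a2, Col3a1 and Fn1, and the same with the P7 groups exchanged for Col1a1. For Timp1, Ccn2 and Tgfb1 both P7 groups were below both P3 groups. Neighbours in these orders overlapped for all 9 genes. The highest group mean was 2.73 times the lowest for Col1a2, 2.28 times for Timp1, 2.27 times for Ccn2, 1.71 times for Fn1, 1.65 times for Tgfb1 and 1.40 times for Col1a1.

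Across the 6 libraries of a day, the levels of Col1a1 and Col3a1 ran together, with a Pearson r of their log2 CPM of 0.87 at P7 and 0.95 at P3, whereas Col1a1 and Col1a2 gave -0.66 and -0.13. Col1a2 and Col3a1 gave -0.52 at P7 and -0.10 at P3. A mean of the 3 collagens thus joins levels that did not all run together. The genes whose log2 CPM was most like the mean of the 3 standardised collagens, among those averaging at least 10 CPM, were ENSRNOG00000011180 (r = 0.988, 18.6 to 29.4 CPM) and ENSRNOG00000011829 (r = 0.984, 10.6 to 13.9 CPM) of 9164 genes at P7. At P3 they were ENSRNOG00000020871 (r = 0.971, 699 to 1167 CPM) and ENSRNOG00000024886 (r = 0.967, 70.6 to 101 CPM) of 8953 genes. These are descriptions over 6 libraries that share day, scaling and depth, and they were picked as the highest among all genes searched.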

How the data were processed

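Left ventricular RNA of 12 libraries in 4 groups of 3 was measured by poly(A)-selected paired-end RNA-seq. The authors removed reads with adapters or low quality, aligned with HISAT2 2.0.5 and counted reads per gene with featureCounts; the deposited values are raw counts. The submitters' processing notes name the mouse builds GRCm38 and mm10, while the identifiers are those of rat Ensembl genes, so the build is unsettled. The strand setting is not given in the sources used here, and reads of antisense or closely similar genes may be shared. The files hold no symbols: names of the 9 genes come from a list of identifiers, and other matrix genes, cell markers, length and GC content could not be looked up.

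Total counts were 14268210 to 17286278. The main test was the quasi-likelihood test of edgeR 4.0.16 (R 4.3.3) after filterByExpr and TMM, within the 6 libraries of a comparison, or over all 12 for the interaction, with Benjamini-Hochberg adjustment and a threshold of 0.05. All 9 genes are named. DESeq2 1.42.0, limma 3.58.1 (voom with sample quality weights), other size factors, no filter, all 12 libraries, a replicate block, a covariate for detected genes and leaving out each library were alternatives. The script was tested on simulated data. The members and lists were chosen with earlier results of these data known. An exact permutation test of the summed collagens, ABS against sham, was run for each day and missed the threshold on both, which 3 against 3 libraries could not have reached. Its p is not reported here. The 6 exact tests of count ratios are given in the text.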

Additional observations from a re-analysis of the deposited data

How the results depend on the processing

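ABS against sham gave 0 of the 9 genes at the adjusted threshold under every alternative with more than 1 library per group, on both days and for the interaction. In the main edgeR fits 0% of all genes passed too, so a count of 0 is not particular to these 9 genes. From P3 to P7 the count was 0 to 4 in the sham group and 0 to 4 in the ABS group when single libraries were left out (4 without sham replicate 1 and 4 without ABS replicate 3 of P3). Of all genes, 32.2% passed without sham replicate 1 and 50.1% without ABS replicate 3 of P3. The count was 4 (sham, against 46.0% of all genes) and 7 (ABS, against 46.4%) with voom weights. With the covariate for detected genes it was 1 (ABS, against 5.20%). The cause was not tested, although leaving out a library also leaves fewer samples. In the fits of ABS against sham the biological coefficient of variation was 0.544 at P3 and 0.148 at P7. Its part in these counts was not tested.

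Whether the replicate numbers pair the libraries could not be told, because litters are not stated and the correlations are few and mixed at P3. Same-numbered ABS and sham libraries had correlations of their deviations of -0.45, 0.36 and -0.01 at P3 and 0.005, 0.06 and 0.004 at P7. With the replicate block 0 of the 9 genes passed in all 5 comparisons. The share of all genes that passed with the block is not given here, so this count shows nothing particular to these genes. The block turned Col1a2 (ABS against sham, P3) to 0.0095 and Sparc (P7 against P3, sham) to 0.018.

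Of the log2 fold changes of single genes, 36 changed sign and 192 did not when a library was left out. Under the other alternatives 34 did and 252 did not. These counts cover all 9 genes for ABS against sham and for P7 against P3, but only Mmp2 for the interaction. For ABS against sham at P3 the values without one library were -0.19 to 0.25 for Col1a1, -0.83 to 0.16 for Col1a2, -0.22 to 0.064 for Col3a1, -0.36 to 0.056 for Fn1, -0.10 to 0.21 for Sparc, -0.40 to 0.35 for Timp1, -0.11 to 0.88 for Ccn2 and -0.29 to 0.51 for Tgfb1. At P7 they were -0.025 to 0.14 for Col1a1, -0.41 to 0.16 for Col1a2, -0.14 to 0.035 for Col3a1, -0.067 to 0.056 for Sparc, -0.067 to 0.21 for Timp1, -0.96 to 0.22 for Ccn2 and -0.029 to 0.046 for Tgfb1. For P7 against P3 they were -0.20 to 0.094 for Sparc (sham), -0.23 to 0.057 for Sparc (ABS) and -0.19 to 0.060 for Mmp2 (ABS). The summed collagens, ABS against sham, ran from -0.21 to 0.13 at P3 and from -0.11 to 0.052 at P7.

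Values of opposite sign near 0 arose for Col1a1 (ABS against sham, P3) with RLE size factors (-0.00101), DESeq2 (-0.000928) and all 12 libraries (-0.015), and for Sparc (P7 against P3, sham) with DESeq2 (0.0013) and no filter (0.017). With voom weights Col1a1 (-0.26) and Timp1 (0.24) changed sign at P3 and Sparc (0.023) at P7. With the covariate, ABS against sham changed sign at P3 for Col1a1 (-0.11), Col1a2 (0.71), Sparc (-0.11) and Tgfb1 (-0.53) and at P7 for Ccn2 (0.014). In the age comparison of the sham group Col1a2 (-0.38), Sparc (0.32), Ccn2 (0.27) and Tgfb1 (0.37) did, and in that of the ABS group Col1a2 (-0.38), Sparc (0.56), Mmp2 (0.44), Timp1 (0.86), Ccn2 (0.21) and Tgfb1 (1.58). In these age comparisons the covariate cannot be separated from day. Without the 3 libraries of few detected genes, ABS against sham at P3 changed sign for Col1a1 (-0.21), Sparc (-0.17), Ccn2 (-0.29) and Tgfb1 (-0.84). The age comparison did so for Sparc (0.094 sham, 0.25 ABS), Mmp2 (0.19, ABS), Timp1 (0.087, ABS) and Tgfb1 (0.56, ABS). The causes were not tested.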
